A study of Rattus norvegicus with 9 samples.

Results

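The aryl hydrocarbon receptor gene Ahr and 8 genes tied to it (the repressor Ahrr, the targets Cyp1a1, Cyp1b1, Aldh3a1, Tiparp and Nqo1, and the kynurenine pathway enzymes Ido1 and Kynu) were examined in rat cardiosphere-derived cells (CDCs) on 3 culture substrates. They were picked by symbol from the 19919 genes in the table, and all 9 were found. CDCs are adherent cells grown out of heart tissue that aggregate into cardiospheres (CSps). Wild-type CDCs from Sprague Dawley rats aged 4 weeks were grown on the OPC substrate, a liquid crystal film of octyl hydroxypropyl cellulose ester (the OPC group), on ultralow attachment plastic, to which cells do not stick (the ULA group), or on polystyrene, to which they do (the PS group). The cells were profiled after 3 days on the substrate. RNA-Seq was run on 3 libraries of each group, 9 in all, which the labels call biological replicates; whether they came from separate animals or separate cultures is not said, so the p-values below measure the spread between these libraries. Values were read as FPKM, a read count scaled for gene length and library size. If that reading holds, levels of different genes can be set side by side. A log2 fold change (log2FC) is the difference between group means of log2(FPKM + 1), which understates the change of genes near 0.

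The receptor is a transcription factor held in the cytoplasm by the HSP90 chaperone and its helpers until it binds a ligand, such as a dioxin, a plant indole or a breakdown product of tryptophan. It then enters the nucleus, pairs with ARNT and binds DNA at sites with the core GCGTG. This switches on enzymes that oxidise (Cyp1a1, Cyp1b1, Aldh3a1) or reduce (Nqo1) foreign compounds, and proteins that damp the receptor itself (Ahrr, Tiparp). In fish embryos, activation of the receptor by dioxin is known to disturb the forming heart.

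The GCGTG core was looked for in the promoters, because it is the sequence the receptor and ARNT are known to bind and most of the targets fell in the same order of substrates. RefSeq (assembly GRCr8) gave a window of 300 bases, 250 before and 50 after the start of the gene, for 6 of the 9 genes, and had none for Cyp1a1, Aldh3a1 and Ido1. The 4 windows that hold the core are printed 5′ to 3′ on the strand of the gene, with GCGTG and its reverse complement CACGC in capitals. They are Ahrr (chr1:30821969-30822268, plus strand), Cyp1b1 (chr6:21094315-21094614, plus strand), Tiparp (chr2:152063519-152063818, plus strand) and Nqo1 (chr19:52220218-52220517, minus strand). The rn6 positions given below list Cyp1b1 on the minus strand and Nqo1 on the plus strand, opposite to GRCr8.
Ahrr: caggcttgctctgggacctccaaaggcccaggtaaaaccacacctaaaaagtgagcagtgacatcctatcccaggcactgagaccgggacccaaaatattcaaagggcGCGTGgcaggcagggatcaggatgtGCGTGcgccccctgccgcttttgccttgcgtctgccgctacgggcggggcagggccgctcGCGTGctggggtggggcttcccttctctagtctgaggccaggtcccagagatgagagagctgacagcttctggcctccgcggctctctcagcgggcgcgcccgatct
Cyp1b1: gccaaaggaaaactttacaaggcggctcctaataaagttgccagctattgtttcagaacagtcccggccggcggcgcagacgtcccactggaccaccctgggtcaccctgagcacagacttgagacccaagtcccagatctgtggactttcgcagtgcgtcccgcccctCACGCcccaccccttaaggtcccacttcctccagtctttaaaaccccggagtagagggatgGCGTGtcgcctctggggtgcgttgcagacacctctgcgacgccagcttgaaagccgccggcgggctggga
Tiparp: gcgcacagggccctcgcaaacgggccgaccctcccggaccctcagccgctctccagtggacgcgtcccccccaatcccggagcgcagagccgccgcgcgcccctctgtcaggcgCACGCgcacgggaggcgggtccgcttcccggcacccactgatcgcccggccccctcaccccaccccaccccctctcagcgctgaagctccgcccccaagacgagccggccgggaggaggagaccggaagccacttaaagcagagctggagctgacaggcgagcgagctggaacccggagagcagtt
Nqo1: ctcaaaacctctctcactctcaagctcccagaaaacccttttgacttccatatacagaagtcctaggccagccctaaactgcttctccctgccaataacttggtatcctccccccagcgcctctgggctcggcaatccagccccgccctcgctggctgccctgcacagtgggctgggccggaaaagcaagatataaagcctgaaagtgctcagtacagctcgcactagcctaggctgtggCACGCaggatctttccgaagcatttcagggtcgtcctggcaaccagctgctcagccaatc

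The Ahrr window held the core 3 times, starting at -142, -117 and -57 from the start of the gene. Cyp1b1 held it 2 times, at -81 as CACGC and at -20 as GCGTG. Tiparp held it once at -136 and Nqo1 once at -10, both as CACGC. The windows of Ahr and Kynu held none. Over all 33469 rat promoter windows of this length, searched on both strands, 29.7% held the core at least once, 10.2% at least 2 times and 3.59% at least 3 times. The longer form TNGCGTG, which contains GCGTG, was in the windows of Ahrr (from -59) and Cyp1b1 (from -22) and in 4.89% of all windows. TGACNNNGC, the antioxidant response element bound by NRF2, and ACGTG, the core of the site bound by the hypoxia factors, were in none of the 6 windows, against 12.1% and 19.3% of all windows. The windows of Tiparp and Ahr were rich in G and C (72.7% and 74.7% of bases, against a median of 51.7% over all windows). Those of Ahrr (63.3%), Cyp1b1 (60.7%) and Nqo1 (56.3%) were also above the median, and that of Kynu (49.7%) was below it. The shares over all windows were not matched for G and C. A match is a stretch of letters and was not read as a bound site. Sites further than 250 bases before the start were not searched, so a window without a motif does not show that the gene lacks it.

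The receptor gene itself (rn6 chromosome 6, 54963990 to 55001464, minus strand) was expressed in every library. Ahr stood at 61.5, 62.7 and 70.7 FPKM in OPC, at 43.6, 43.1 and 42.1 FPKM in ULA, and at 70.6, 66.7 and 66.5 FPKM in PS. All 3 OPC libraries were above all 3 ULA libraries, while the OPC and PS libraries overlapped, so the order of the levels was OPC and PS together, then ULA. The log2FC of Ahr was 0.58 (SE 0.05) in OPC versus ULA, -0.07 (SE 0.05) in OPC versus PS and -0.65 (SE 0.05) in ULA versus PS. The sign of the OPC versus PS difference turned under quantile normalization (0.0055).

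Ahrr (rn6 chromosome 1, 31603297 to 31698329, plus strand) encodes a protein that competes with the receptor for ARNT and is itself switched on by the receptor. It stood at 8.94, 11.2 and 7.09 FPKM in OPC, at 1.16, 1.32 and 1.34 FPKM in ULA, and at 0.261, 0.161 and 0.360 FPKM in PS. The 3 groups did not overlap, in the order OPC, ULA, PS, and the OPC mean was 7.14 times the ULA mean. The log2FC of Ahrr was 2.13 (SE 0.14) in OPC versus ULA, 2.98 in OPC versus PS and 0.85 in ULA versus PS. With a pseudocount of 0.1 in place of 1 these became 2.72, 4.68 and 1.96, since Ahrr was under 1 FPKM in every PS library.

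Tiparp (rn6 chromosome 2, 157316266 to 157341469, plus strand), a mono-ADP-ribosyltransferase that modifies the receptor and lowers its activity, differed less. Its level was 54.3, 57.6 and 46.8 FPKM in OPC, 33.0, 31.2 and 31.4 FPKM in ULA, and 19.6, 19.5 and 18.6 FPKM in PS. The groups again fell in the order OPC, ULA, PS with no overlap, but the OPC mean was 1.66 times the ULA mean (log2FC 0.71, SE 0.07), under the fold threshold of 1 on the log2 scale used for DEGs. The log2FC of Tiparp was 1.41 in OPC versus PS and 0.70 in ULA versus PS.

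Cyp1a1, the monooxygenase most used as a readout of receptor activity, showed the widest separation of OPC from ULA among these genes. Cyp1a1 (rn6 chromosome 8, 62472095 to 62478147, plus strand) was measured at 129.7, 162 and 107 FPKM in OPC, at 4.28, 3.06 and 3.77 FPKM in ULA, and at 0.078, 0.022 and 1.15 FPKM in PS. Every OPC library was far above every ULA library, and the OPC mean was 35.8 times the ULA mean. Replicate 3 of PS stood apart from the other 2 PS libraries, though still below ULA. Its log2FC was 4.82 (SE 0.27) in OPC versus ULA, 6.63 in OPC versus PS and 1.81 in ULA versus PS. The 2 differences from PS rest on values near 0 in PS and became 8.77 and 3.65 with a pseudocount of 0.1, while OPC versus ULA became 5.12. Without PS replicate 3 they were 6.97 and 2.16.

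Cyp1b1 (rn6 chromosome 6, 2307808 to 2316722, minus strand), a related monooxygenase expressed in mesenchymal cells, was, with Nqo1, the most abundant of the 9. Its level was 993, 1094 and 955 FPKM in OPC, 319, 306 and 310.3 FPKM in ULA, and 408, 405 and 412 FPKM in PS. Cyp1b1 did not follow the order of Cyp1a1, since its lowest group was ULA and not PS, with no overlap between any of the 3 groups. The log2FC of Cyp1b1 was 1.70 (SE 0.05) in OPC versus ULA, 1.31 in OPC versus PS and -0.39 in ULA versus PS.

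Aldh3a1 (rn6 chromosome 10, 47490153 to 47499876, plus strand), an aldehyde dehydrogenase that clears aldehydes made by lipid peroxidation, followed Cyp1a1. It was at 216, 257 and 176 FPKM in OPC, at 21.5, 12.8 and 18.2 FPKM in ULA, and at 0.545, 0.265 and 2.36 FPKM in PS. The groups did not overlap, and PS replicate 3 was again the highest of its group. The OPC mean of Aldh3a1 was 12.4 times the ULA mean (log2FC 3.57, SE 0.33), and its log2FC was 6.84 in OPC versus PS and 3.28 in ULA versus PS (7.26 and 3.70 without PS replicate 3). With a pseudocount of 0.1 the differences of Aldh3a1 became 3.63 in OPC versus ULA, 8.003 in OPC versus PS and 4.37 in ULA versus PS. Without ULA replicate 2 they were 3.37 in OPC versus ULA and 3.47 in ULA versus PS. Which of these 2 differences was the larger thus depends on the pseudocount and on single libraries (ULA replicate 2 and PS replicate 3).

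Nqo1 (rn6 chromosome 19, 38422164 to 38437180, plus strand) encodes a quinone reductase under the control of both the receptor and NRF2, the factor of the antioxidant response. Its level was 966, 1031 and 823 FPKM in OPC, 460.5, 449 and 428 FPKM in ULA, and 139, 142 and 152 FPKM in PS. The order was OPC, ULA, PS with no overlap. The larger step of Nqo1 was the one between ULA and PS (log2FC 1.62, SE 0.08), against 1.07 (SE 0.08) in OPC versus ULA and 2.69 in OPC versus PS. The OPC versus ULA difference sat at the fold threshold: it was 0.9991 under upper-quartile rescaling and 0.9998 without OPC replicate 2.

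**Figure D1:**
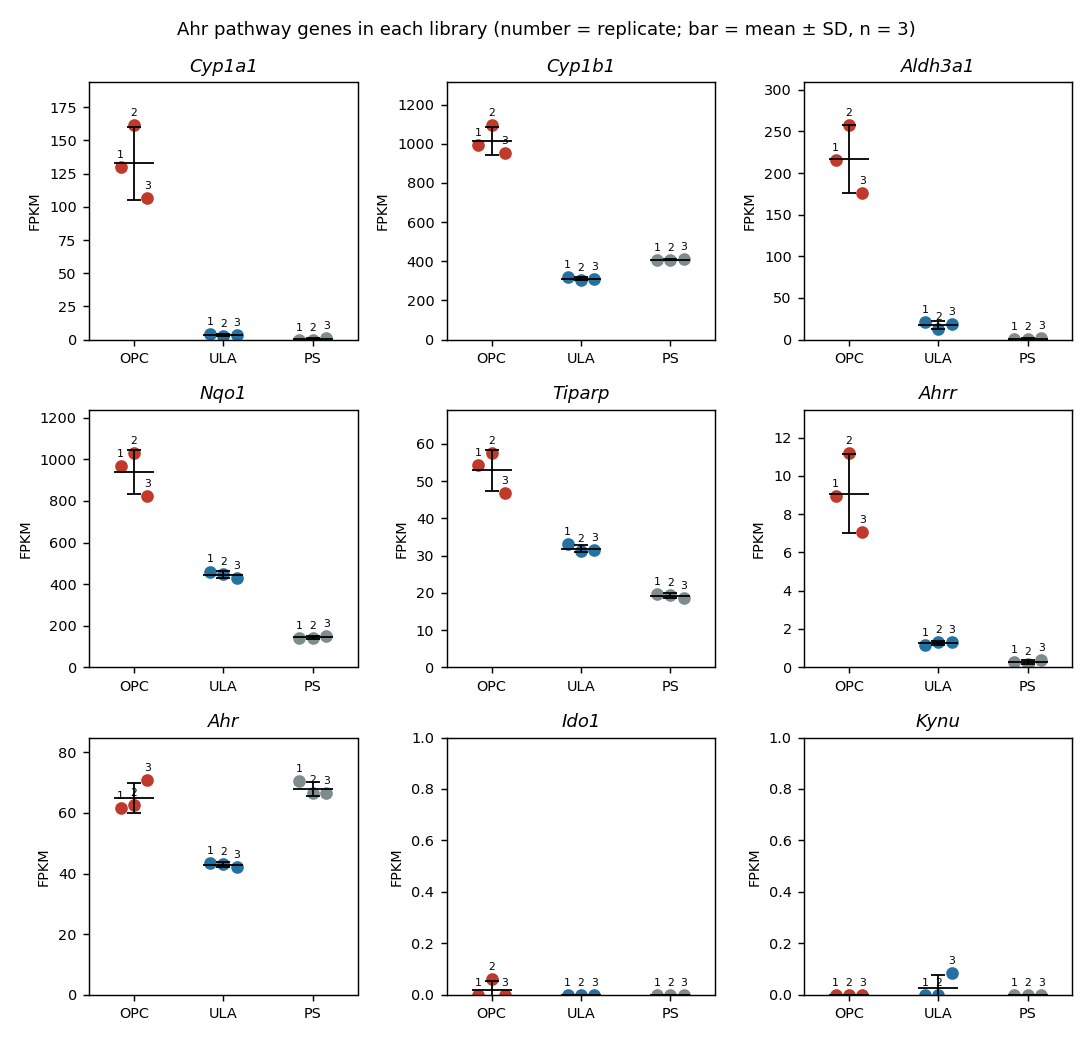
Level in FPKM (vertical axis, from 0, scaled per panel) of the 9 genes in each library of the OPC, ULA and PS groups, numbered by replicate, with the group mean and SD (n = 3). Cyp1a1 and Aldh3a1 are near the baseline outside OPC, Cyp1b1 is lowest in ULA, Ahr is lowest in ULA with OPC and PS overlapping, and Ido1 and Kynu are at 0 in 8 of 9 libraries.

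Ido1 (rn6 chromosome 16, 72216326 to 72228098, plus strand), which opens the tryptophan ring and starts the route to kynurenine, a ligand of the receptor, was listed at 0 in 8 of 9 libraries and at 0.0607 FPKM in OPC replicate 2. Kynu (rn6 chromosome 3, 28416954 to 28566928, plus strand), the kynureninase further down that route, was listed at 0 in 8 of 9 libraries and at 0.0849 FPKM in ULA replicate 3. Neither passed the filter of at least 1 FPKM in at least 3 libraries, which left 7 of the 9 genes among the 12513 fitted. The absolute depth of the libraries is unknown, so a listed 0 was not read as absence.

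The comparisons between substrates share libraries, and the genes were picked with their values in these comparisons known, so the differences of the 9 genes are given as a description with no p-value. In OPC versus ULA, 7 of the 9 genes were higher in every OPC library than in any ULA library, and 36.1% of all tested genes showed that pattern. In OPC versus PS it was 6 of the 9, Ahr being the exception among those above the filter, against 44% of all tested genes. In ULA versus PS it was 5 of the 9 higher, against 40.4% of all tested genes, and 2 of the 9 lower (Ahr and Cyp1b1), against 32%. By the rule for DEGs (adjusted p of at most 0.05 and log2FC of at least 1 in size), 5 of the 9 were higher in OPC versus ULA, against 1.81% of all tested genes. These were Cyp1a1, Aldh3a1, Ahrr, Cyp1b1 and Nqo1. Nearest the fold threshold stood Nqo1 inside it (1.07) and Tiparp outside it (0.71). In OPC versus PS, 6 of the 9 met the rule as higher, against 6.6% of all tested genes. In ULA versus PS it was 3 of the 9 (Cyp1a1, Aldh3a1 and Nqo1), against 8.42%. As the genes were picked with these values known, the counts by the rule describe them and give no support for a difference. Ido1 and Kynu are counted in the 9 but were not fitted, while the shares cover fitted genes only.

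**Figure D2:**
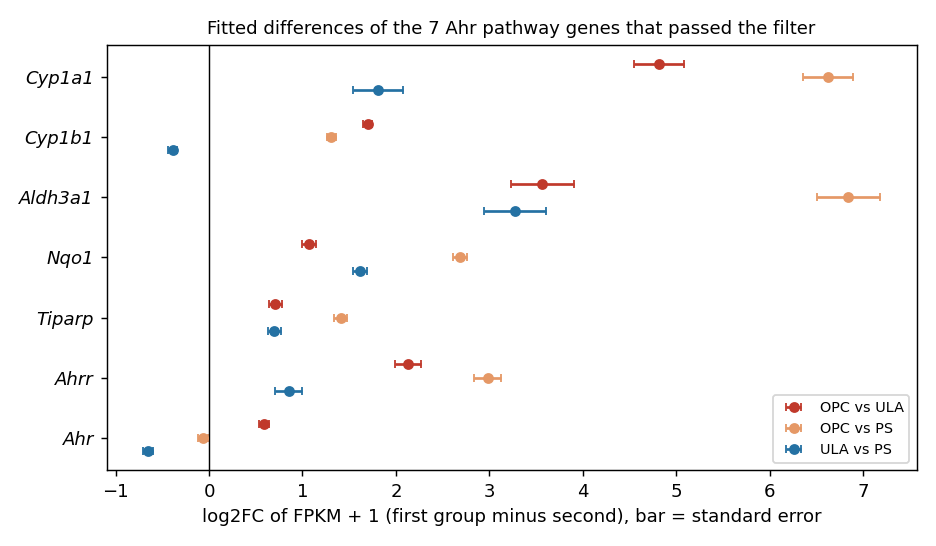
Fitted log2FC of FPKM + 1 (horizontal axis) with its standard error for the 7 genes above the filter, in OPC versus ULA, OPC versus PS and ULA versus PS. OPC versus ULA runs between 0.58 (Ahr) and 4.82 (Cyp1a1), and only Ahr and Cyp1b1 lie below 0 in ULA versus PS.

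The receptor's partners were then tested with limma, from a list of 20 partners, chaperones, co-activators and degradation factors, of which 19 were in the table and 18 passed the filter. In OPC versus ULA, 10 of the 18 were higher and 2 lower (adjusted p no more than 0.05), against 32.2% and 21.7% of all tested genes, and the median log2FC was 0.26, against 0.06 over all genes. Arnt, the partner the receptor needs on DNA, was not among them: it averaged 25.2 ± 1.65 FPKM in OPC and 24.4 ± 0.993 FPKM in ULA (SD, n = 3 each; log2FC 0.04, limma adjusted p = 0.629), and 17.9 ± 1.70 FPKM in PS (OPC versus PS 0.47, limma adjusted p = 0.000292). Arnt2, its paralog, was the 1 gene of the list that passed as a DEG in OPC versus ULA, at 4.13, 4.40 and 4.61 FPKM in OPC, 1.34, 1.29 and 1.67 FPKM in ULA, and 6.34, 5.63 and 6.19 FPKM in PS. Its levels were higher in OPC than in ULA (log2FC 1.15, limma adjusted p = 4.6e-06) and lower in OPC than in PS (-0.39, limma adjusted p = 0.00268).

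Of the chaperones of the unbound receptor, Hsp90ab1 and Ptges3 did not pass in OPC versus ULA. Hsp90ab1, the constitutive HSP90, averaged 441 ± 8.24 FPKM in OPC and 451 ± 14.1 FPKM in ULA, with a log2FC of -0.03 that did not pass, passed as lower under upper-quartile rescaling (-0.10) and turned to 0.11 under quantile normalization. Ptges3, the p23 co-chaperone, averaged 94.8 ± 5.07 FPKM in OPC and 100.5 ± 9.87 FPKM in ULA. Hsp90aa1 was listed at 0.107 to 0.425 FPKM, and since it overlaps other genes in the table its level was not read.

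Among the co-activators, Smarca4, the ATPase of a chromatin remodelling complex, averaged 42.1 ± 0.462 FPKM in OPC and 24.7 ± 0.622 FPKM in ULA (log2FC 0.75, limma adjusted p = 1.67e-07), and 37.3 ± 0.282 FPKM in PS. Ncoa3, a histone acetyltransferase of the steroid receptor co-activator family, averaged 10.7 ± 0.431 FPKM in OPC and 7.09 ± 0.248 FPKM in ULA (0.53, limma adjusted p = 2.28e-05). Relb, an NF-kB subunit that can pair with the receptor, averaged 24.6 ± 2.42 FPKM in OPC, 17.1 ± 1.42 FPKM in ULA and 13.2 ± 1.36 FPKM in PS (OPC versus ULA 0.50, limma adjusted p = 0.00133). Ncoa2, Crebbp, Med1, Nrip1, Src and Ddb1 were also higher in OPC than in ULA, while Ncoa1 and the ubiquitin ligase scaffold Cul4b did not pass. Cul4b passed as lower under upper-quartile rescaling (-0.12) and quantile normalization (-0.13). The 2 lower genes were Klf6, a zinc finger factor that can pair with the receptor, and Rb1, the retinoblastoma protein, which overlaps Lpar6 in the table and may share reads with it. Klf6 averaged 10.4 ± 1.10 FPKM in OPC and 14.8 ± 3.43 FPKM in ULA, a difference (log2FC -0.45, limma adjusted p = 0.0248) that no longer passed without OPC replicate 3 (-0.37), ULA replicate 1 (-0.39) or ULA replicate 3 (-0.32).

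In OPC versus PS, 11 of the 18 partners were higher and 4 lower, against 40.4% and 23.9% of all tested genes, with a median log2FC of 0.17 beside 0.11 over all genes. Nrip1, a co-repressor that is also a target of the receptor, was the 1 that passed as a higher DEG, at 10.1 ± 0.410 FPKM in OPC and 3.62 ± 0.163 FPKM in PS (log2FC 1.26, limma adjusted p = 6.05e-08). Klf6 was a lower DEG, at 10.4 ± 1.10 FPKM in OPC and 35.1 ± 0.876 FPKM in PS (-1.66, limma adjusted p = 5.42e-06). In ULA versus PS, 8 of the 18 were higher and 7 lower, against 38.4% and 30.5% of all tested genes.

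ARNT also serves other factors. Of 8 such genes listed, 7 were in the table and 3 passed the filter: Hif1a and Epas1, the oxygen-regulated subunits of the hypoxia factors, and Sim2, a developmental factor. All 3 were higher in OPC than in ULA by limma, as were 32.2% of all tested genes. Epas1 averaged 33.8 ± 1.40 FPKM in OPC, 23.4 ± 0.895 FPKM in ULA and 27.7 ± 1.24 FPKM in PS (OPC versus ULA 0.51, limma adjusted p = 2.23e-05). Hif1a differed more from PS, at 148 ± 3.36 FPKM in OPC, 129 ± 7.12 FPKM in ULA and 51.9 ± 1.75 FPKM in PS (OPC versus PS 1.49, limma adjusted p = 4.5e-09). Sim2 was low throughout, at 2.73 ± 0.648 FPKM in OPC and 1.06 ± 0.388 FPKM in ULA (0.86, limma adjusted p = 0.00213), and overlaps Hlcs, with which it may share reads.

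Ligands of the receptor can be made from tryptophan, and 19 genes of these routes were listed, of which 17 were in the table and 8 passed the filter. Several enzymes of the kynurenine route were near 0: beside Ido1 and Kynu, the ring-opening enzyme Tdo2 and the hydroxylase Kmo stood at 0 to 0.139 FPKM and 0 to 0.0742 FPKM. Afmid, the formamidase that releases kynurenine, lay between 0.503 and 0.647 FPKM in OPC, 0.640 and 0.875 FPKM in ULA, and 0.136 and 0.254 FPKM in PS, under the filter. Ido2, a paralog of Ido1, reached 1.90 FPKM in ULA replicate 3 and lay between 0.369 and 0.974 FPKM in the other libraries. Qprt, which turns quinolinate into an NAD precursor, stood at 0.355, 0.391 and 0.382 FPKM in ULA and at or under 0.0965 FPKM in every other library, both groups being under the filter.

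The 8 genes above the filter were the oxidase Il4i1, the transaminases Kyat1 and Kyat3, the monoamine oxidases Maoa and Maob, and 3 transporter genes. In OPC versus ULA, 5 of the 8 were higher by limma, against 32.2% of all tested genes, and the other 3 did not pass; the median log2FC was 0.41, against 0.06 over all genes. Il4i1, which is secreted and turns tryptophan into indole-3-pyruvate, a precursor of receptor ligands, stood at 3.70, 3.72 and 3.59 FPKM in OPC, 1.53, 2.52 and 2.38 FPKM in ULA, and 1.64, 1.90 and 2.24 FPKM in PS. Its OPC libraries were above all others (OPC versus ULA 0.59, limma adjusted p = 0.00482; OPC versus PS 0.68, limma adjusted p = 0.00151), at a level of a few FPKM. Kyat1 and Kyat3, which turn kynurenine into kynurenic acid, were higher in OPC than in ULA by 0.42 and 0.39 on the log2 scale (limma adjusted p = 0.00148 and 0.00286). Maoa, which takes serotonin and tryptamine, averaged 115 ± 2.55 FPKM in OPC, 70.0 ± 2.56 FPKM in ULA and 75.2 ± 2.71 FPKM in PS (OPC versus ULA 0.71, limma adjusted p = 8.03e-07). Maob, its paralog, differed more from PS, at 13.4 ± 0.364 FPKM in OPC, 9.63 ± 0.229 FPKM in ULA and 1.90 ± 0.150 FPKM in PS (OPC versus PS 2.31, limma adjusted p = 1.55e-09).

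Tryptophan and kynurenine enter cells through the Slc7a5 and Slc3a2 exchanger. Slc7a5 stood at 10.1, 10.7 and 12.1 FPKM in OPC, 11.2, 13.3 and 12.0 FPKM in ULA, and 81.3, 80.7 and 80.7 FPKM in PS. OPC and ULA overlapped, and their difference did not pass (-0.14, limma adjusted p = 0.124), though it passed as lower in OPC under upper-quartile rescaling, under quantile normalization and without OPC replicate 3 (-0.21 in each). Both were far below PS (OPC versus PS -2.78, limma adjusted p = 1.9e-09). Its partner Slc3a2 averaged 133 ± 4.68 FPKM in OPC, 130 ± 4.06 FPKM in ULA and 154 ± 3.85 FPKM in PS (OPC versus PS -0.21, limma adjusted p = 0.000901). Slc36a4, another tryptophan transporter, did not pass in OPC versus ULA. Over the 8 tested genes, 6 were higher and 2 lower in OPC versus PS, against 40.4% and 23.9% of all tested genes, and 2 were higher and 3 lower in ULA versus PS, against 38.4% and 30.5%.

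A list of 20 further genes described elsewhere as targets of the receptor was tested in the same fit, with 18 in the table and 15 above the filter. In OPC versus ULA, 7 were higher and 4 lower, against 32.2% and 21.7% of all tested genes, and the median log2FC was 0.05, beside 0.06 over all genes tested. The list was divided, with its median next to that of all genes. The higher genes included Hes1, a Notch target, with 78.9 ± 7.28 FPKM in OPC and 20.8 ± 3.09 FPKM in ULA (1.88, limma adjusted p = 7.97e-07), and the growth factor gene Ereg, with 25.1 ± 1.85 FPKM in OPC and 7.35 ± 0.787 FPKM in ULA (1.65, limma adjusted p = 4.37e-07). Ptgs2, the inducible cyclooxygenase, averaged 212 ± 7.01 FPKM in OPC, 101 ± 12.2 FPKM in ULA and 78.2 ± 1.64 FPKM in PS (OPC versus ULA 1.08, limma adjusted p = 2.93e-06). Hes1 and Ereg were lowest in ULA and Ptgs2 in PS by group mean, and the difference of Hes1 between OPC and PS (82.0 ± 5.47 FPKM in PS) did not pass (-0.06, limma adjusted p = 0.658). Nedd9, a scaffold protein of focal adhesions, was higher in OPC than in ULA (0.67, limma adjusted p = 7.51e-07) and lower in OPC than in PS (-1.0, limma adjusted p = 1.6e-08).

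The lower genes of this list in OPC versus ULA included a pair that restrain the cell cycle. Cdkn1b, the inhibitor p27, averaged 24.1 ± 1.37 FPKM in OPC and 56.1 ± 2.58 FPKM in ULA (-1.19, limma adjusted p = 1.43e-07). Ccng2, an unconventional cyclin, averaged 23.6 ± 0.881 FPKM in OPC and 53.7 ± 5.18 FPKM in ULA (-1.15, limma adjusted p = 8.8e-07). Serpinb2, a protease inhibitor that dioxin raises in human cells, averaged 0.686 ± 0.0632 FPKM in OPC and 2.99 ± 0.538 FPKM in ULA (-1.23, limma adjusted p = 3.32e-05). Ugdh, which makes UDP-glucuronate, was lower by a smaller step (-0.22, limma adjusted p = 0.000333). Cyp1a2, the liver paralog of Cyp1a1, was listed at 0 to 0.0348 FPKM in all libraries.

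A further 2 genes of the list were singled out after their values were seen. Xdh, which makes urate, averaged 52.3 ± 2.57 FPKM in OPC, 41.6 ± 2.35 FPKM in ULA and 4.98 ± 0.517 FPKM in PS (OPC versus ULA 0.33, limma adjusted p = 0.0036; OPC versus PS 3.16, limma adjusted p = 8.95e-10). Gsta1, a glutathione transferase, stood at 181, 264 and 142 FPKM in OPC, 124, 118 and 93.0 FPKM in ULA, and 96.6, 81.2 and 125 FPKM in PS. Its OPC libraries were all above the others (OPC versus ULA 0.77, limma adjusted p = 0.0171), but the call did not hold without ULA replicate 3 (0.64), and Gsta1 overlaps its close paralog Gsta3, with which it may share reads. In OPC versus PS, 9 of the 15 genes were higher and 3 lower, against 40.4% and 23.9% of all tested genes, and in ULA versus PS it was 9 and 4, against 38.4% and 30.5%.

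Nqo1, Aldh3a1 and other detoxifying enzymes are also targets of NRF2, so 20 genes of NRF2 and its targets other than Nqo1 were tested, with 18 in the table and all of those above the filter. In OPC versus ULA, 11 were higher and 4 lower, against 32.2% and 21.7% of all tested genes, and the median log2FC was 0.19, against 0.06 over all genes. The highest was Me1, the NADPH-making malic enzyme, at 28.7 ± 1.49 FPKM in OPC and 15.1 ± 0.733 FPKM in ULA (0.88, limma adjusted p = 7.7e-07). Ephx1, an epoxide hydrolase, differed by 0.66 (limma adjusted p = 1.27e-05), Mgst1, a membrane glutathione transferase, by 0.51 (limma adjusted p = 1.29e-05), and Gsr, which regenerates glutathione, by 0.31 (limma adjusted p = 0.000181). Hmox1, the heme oxygenase, went the other way, at 369 ± 31.4 FPKM in OPC and 704 ± 41.9 FPKM in ULA (-0.93, limma adjusted p = 3.02e-06). Prdx1, Gclc and Txnrd1, of the peroxide and thiol defence, were also lower in OPC than in ULA (-0.36, -0.36 and -0.17). The gene for NRF2 itself, Nfe2l2, looked up after the list was tested, averaged 150 ± 4.74 FPKM in OPC and 137 ± 5.01 FPKM in ULA (0.13, limma adjusted p = 0.0134), and this call was lost under upper-quartile rescaling (0.06) and without OPC replicate 1 (0.12).

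In OPC versus PS, 10 of the 18 NRF2 genes were higher and 3 lower, against 40.4% and 23.9% of all tested genes, with a median log2FC of 0.19 beside 0.11 over all genes. Mgst1 averaged 194 ± 2.54 FPKM in OPC and 40.8 ± 2.24 FPKM in PS (2.22, limma adjusted p = 4.8e-10), and Hmox1 was higher by 1.67 (limma adjusted p = 2.12e-08). Me1 was lower in OPC than in PS (-0.44, limma adjusted p = 3.39e-05). In ULA versus PS, where Nqo1 had its larger step, 7 of the 18 were higher and 5 lower, against 38.4% and 30.5% of all tested genes, and the largest was Hmox1 (2.61, limma adjusted p = 9.26e-10).

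**Figure D3:**
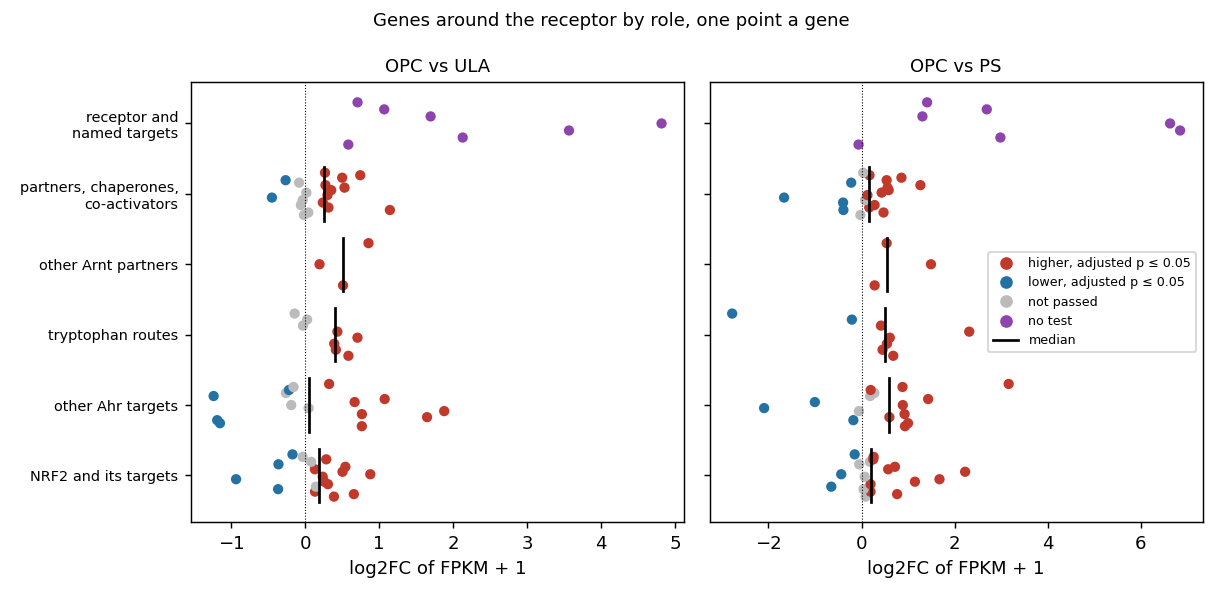
Log2FC of FPKM + 1 (horizontal axis) of each gene above the filter, 1 point a gene, grouped by role down the page, in OPC versus ULA and OPC versus PS. Colours give the limma call at an adjusted p of at most 0.05 and the black line the median of a list; in OPC versus ULA the medians are 0.26 for partners, 0.41 for tryptophan routes, 0.05 for other targets and 0.19 for NRF2 genes, and Cyp1a1 is the rightmost point at 4.82.

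To see which genes shared the pattern of Cyp1a1, Pearson's r of log2(FPKM + 1) was taken over the 9 libraries among 8107 genes with a mean of at least 5 FPKM. With 3 groups of 3, such an r mainly follows the group means, and it is given as a description. The 8 genes most like Cyp1a1 outside the 9 were Ptgs1 (r = 0.996), the constitutive cyclooxygenase, Ifi30 and Abi2 (both 0.995), Scp2 (0.995), a peroxisomal lipid carrier, Efnb1 (0.994), a membrane-bound guidance ligand, Lifr (0.994), the LIF receptor, Tnfrsf1a (0.994), a TNF receptor, and Fam20b (0.993). Ptgs1 averaged 97.4 ± 3.91 FPKM in OPC, 44.9 ± 1.02 FPKM in ULA and 34.8 ± 1.75 FPKM in PS, a much shallower slope than that of Cyp1a1 at nearly the same r. Of the targets above, Aldh3a1 (r = 0.973) had 138 of the 8107 genes ahead of it, Tiparp (0.957) had 271, Nqo1 (0.928) had 496 and Cyp1b1 (0.880) had 895. Ahr itself had an r of 0.150 with Cyp1a1. The genes most like Ahr were Tnn (0.997), Cyp20a1 (0.994), Ntn4 (0.991), Ntrk2 (0.991) and Myzap (0.990). Tnn, the matrix protein tenascin-N, averaged 14.2 ± 2.63 FPKM in OPC, 5.26 ± 0.279 FPKM in ULA and 15.9 ± 0.385 FPKM in PS.

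Within the OPC group the targets varied together, a pattern seen only on inspection of the values. Replicate 2 was the highest and replicate 3 the lowest library for 6 of 6 targets, that is Cyp1a1, Aldh3a1, Ahrr, Cyp1b1, Nqo1 and Tiparp, and 22% of all tested genes had this order. The highest library was 1.58 times the lowest for Ahrr, 1.51 times for Cyp1a1, 1.47 times for Aldh3a1, 1.25 times for Nqo1, 1.23 times for Tiparp and 1.15 times for Cyp1b1. Ahr ran the other way, with replicate 3 the highest and replicate 1 the lowest. The smooth muscle genes Acta2 (92.3, 69.3 and 123 FPKM) and Tagln (82.4, 68.2 and 119 FPKM, overlapping Sidt2) were also highest in OPC replicate 3, and lowest in replicate 2. Myh11 (1.87, 1.94 and 2.17 FPKM) and Smtn (18.5, 19.5 and 23.4 FPKM) were highest in replicate 3 but lowest in replicate 1. Cnn1, another smooth muscle marker, was highest in replicate 1 (0.234, 0.0495 and 0.0902 FPKM). The part of smooth muscle cells in the spread of the targets was not tested.

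**Figure D4:**
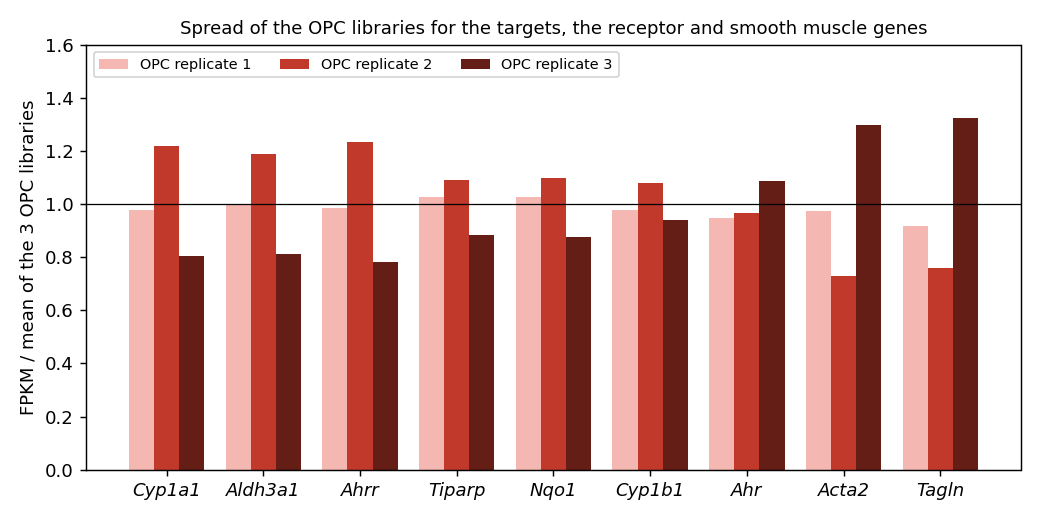
FPKM of each OPC library divided by the mean of the 3 OPC libraries (vertical axis, from 0) for the 6 targets, Ahr, Acta2 and Tagln. Replicate 2 is highest for the 6 targets, and replicate 3 is highest for Ahr, Acta2 and Tagln.

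The identity of the cells was checked with markers. All 7 mesenchymal markers were detected, with a summed level of 4897 to 5181 FPKM in OPC, 5075 to 5376 FPKM in ULA and 8308 to 8367 FPKM in PS. The sum was mostly Col1a1, which averaged 3756 FPKM in OPC, 3320 FPKM in ULA and 5833 FPKM in PS. By limma, 4 of the 7 were higher and 3 lower in OPC versus PS, against 40.4% and 23.9% of all tested genes. In OPC versus ULA it was 3 and 2, against 32.2% and 21.7%. The 5 smooth muscle markers summed to 159 to 267 FPKM in OPC, 86.1 to 90.3 FPKM in ULA and 4405 to 4486 FPKM in PS. This sum was mostly Acta2 and Tagln, and it moved with the substrate as the targets did but in another order. By limma, 4 of the 5 were higher and 1 lower in OPC versus ULA, against 32.2% and 21.7% of all tested genes. The lower one was Cnn1, which averaged 0.125 FPKM in OPC and 0.403 FPKM in ULA. In OPC versus PS all 5 were lower, against 23.9% of all tested genes. The 6 macrophage markers in the table summed to 44.0 to 49.6 FPKM in OPC, 74.7 to 79.0 FPKM in ULA and 20.5 to 22.7 FPKM in PS, with Ptprc, Adgre1 and Csf1r under 1 FPKM in all libraries. That sum was mostly Cd68, which averaged 23.9 FPKM in OPC, 39.8 FPKM in ULA and 3.04 FPKM in PS, and Cd14, at 21.6, 35.0 and 18.2 FPKM. The 5 dendritic and the 3 endothelial markers in the table were under 1 FPKM in every library. Cardiomyocyte markers summed to at most 5.22 FPKM, and epithelial and mesothelial markers to at most 5.70 FPKM. In bulk RNA a change in the number of cells of a type cannot be told apart from a change in RNA per cell. Library sums lay between 444736 and 460732 FPKM, relative depth between 0.869 and 1.17 times that of PS replicate 1, and the mitochondrial share between 8.65% and 12.4%, highest in PS. Libraries of a group correlated at 0.987 to 0.991 across genes and libraries of different groups at 0.873 to 0.957.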

How the data were processed

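The libraries are RNA-Seq of CDCs on the OPC, ULA and PS substrates, 3 per group, grouped by the GEO labels. Per the labels and the study's methods, reads were aligned to rn6 with HISAT2 (2.1 in the submitters' processing notes, which also name StringTie 1.3.0), and the methods name featureCounts for counting and DESeq2 for expression values. The tool that made the table and the strand of counting are not given in the sources used here. RNA extraction is given as Trizol in the labels and as an Omega kit in the methods. The table the authors deposited holds values that no source names and that were read as FPKM, because they are not whole, sum to different totals and, among genes under 0.3 FPKM, lie for 59.9 to 65.0% of genes on whole-read ratios between 2 libraries (tolerance 0.01 on the log2 scale), against 0.789 to 1.55% at other offsets. Absolute depth is unknown, and no counting interval is given.

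Genes with at least 1 FPKM in at least 3 libraries (12513 of 19919) were fitted with limma 3.58.1 (R 4.3.3) on log2(FPKM + 1), 3 groups in 1 fit with 6 residual degrees of freedom and a variance trend, two-sided, with Benjamini-Hochberg adjustment over all 12513 genes; standard errors (SE) are those of that fit. DEGs were genes with a log2FC of 1 or more in size and an adjusted p no higher than 0.05. Spread is the SD over 3 libraries. A gene was said to overlap another where their spans in the table intersect, as for 21 of 161 listed genes. Promoters were searched with Python 3.11.15. The fit was tested on simulated data. The alternatives were a pseudocount of 0.1, no filter, a filter of 5 FPKM, upper-quartile and quantile normalization, no trend, a replicate block, only the 2 groups compared, the unadjusted p, and leaving out each library.

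The 9 genes and the lists were chosen with earlier results of these data known, so no p-value over a list is given. All genes of the partner, other ARNT partner and tryptophan lists could be named. Of the other lists, the rule was at most 4 genes in each direction with the smallest adjusted p in OPC versus ULA. The 8 and 5 genes most like Cyp1a1 and Ahr were also named. Xdh, Gsta1, Nfe2l2, Cyp1a2 and single marker genes were named outside this rule. Xdh and Gsta1 were picked after their values were seen, so their p-values only describe them. A gene of the partner list is not reported here by name. Names made of clone or locus numbers were not counted as symbols. For Ido1, listed at 0 in 8 of 9 libraries, no such genes are given.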

Additional observations from a re-analysis of the deposited data

How the results depend on the processing

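For Cyp1a1, Aldh3a1, Ahrr, Cyp1b1, Tiparp and Nqo1 the sign of each difference between substrates held under all 17 alternatives, as it did for Ahr except in OPC versus PS, where quantile normalization gave 0.0055. A pseudocount of 0.1 moved 8 of the 21 differences by more than the spread between replicates, quantile normalization 4 and upper-quartile rescaling 1. Over all genes tested, OPC versus ULA gave 542 DEGs, and 892 with a pseudocount of 0.1. Under quantile normalization, Hsp90ab1 in OPC versus ULA (-0.03) became 0.11, Crebbp in OPC versus PS (0.17) became -0.0024 and Maoa in ULA versus PS (-0.10) became 0.0149, and the cause was not tested. For the other named genes, leaving out 1 library ended 50 and gave 9 new calls of 1881. Libraries of the same replicate number showed no clear shared deviation from their group means. These deviations correlated at -0.0394 to 0.0542, with 0 of 9 pairs over 0.1. A library correlated best with its own number in 3 of 18 checks. With 3 libraries per group this cannot decide whether libraries of the same number share a cell preparation, which the sources do not say. With a replicate block, OPC versus ULA gave 544 DEGs, OPC versus PS 1596 (1591 without the block) and ULA versus PS 1976 (1978 without it), and the lists gave 46, 49 and 46 changed genes in the same order. Levels under 1 FPKM, such as those of Cyp1a1, Aldh3a1 and Ahrr in PS, limit the size of the differences from PS, and the unknown depth limits the reading of Ido1 and Kynu.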

Other observations

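Enzymes that serve or resemble the receptor's targets were listed apart from them. Of 14 such genes above the filter, 9 were higher in OPC than in ULA by limma and the other 5 did not pass. Over all genes tested 32.2% were higher, and the median log2FC was 0.40 beside 0.06 over all genes. Against PS the list was divided, with 6 of the 14 higher and 4 lower in OPC, against 40.4% and 23.9% of all genes tested. In ULA versus PS it was 4 and 6, against 38.4% and 30.5%. Por, the reductase that passes electrons to Cyp1a1, Cyp1b1 and other microsomal P450 enzymes, averaged 52.7 ± 1.66 FPKM in OPC, 38.1 ± 1.5 FPKM in ULA and 23.7 ± 0.770 FPKM in PS (OPC versus ULA 0.46, limma adjusted p = 1.99e-05; OPC versus PS 1.12, limma adjusted p = 2e-08). It followed the order of Cyp1a1 over a far narrower range. Aldh2, the mitochondrial aldehyde dehydrogenase, averaged 113 ± 1.42 FPKM in OPC, 71.6 ± 1.58 FPKM in ULA and 92.1 ± 5.88 FPKM in PS (OPC versus ULA 0.65, limma adjusted p = 2.85e-06). Cyb5r3 and Cyb5b, of the cytochrome b5 electron chain, were higher in OPC than in ULA by 0.58 and 0.35 (limma adjusted p = 1.43e-06 and 9.83e-05).

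Ido1 is induced by interferon gamma and by NF-kB, and genes of these routes were measured although Ido1 was near 0. In OPC versus ULA, 3 of the 15 genes above the filter were higher and 3 lower, against 32.2% and 21.7% of all genes tested, and 9 did not pass. Ifngr1, a chain of the interferon gamma receptor, averaged 48.8 ± 1.22 FPKM in OPC, 39.8 ± 0.713 FPKM in ULA and 103 ± 1.80 FPKM in PS (OPC versus ULA 0.29, limma adjusted p = 6.22e-05; OPC versus PS -1.06, limma adjusted p = 4.66e-09). Il6 was higher in OPC than in ULA by 0.59 and Socs1 by 0.55 (limma adjusted p = 9.59e-05 and 0.00736). The kinase gene Jak2, the feedback inhibitor Socs3 and the checkpoint ligand Cd274 were lower in OPC than in ULA, with a log2FC of -0.43, -0.86 and -0.75 (limma adjusted p = 4.95e-05, 0.000528 and 0.000673). In OPC versus PS, 13 of the 15 were higher and 1 lower, against 40.4% and 23.9% of all genes tested. ULA versus PS was much alike, with 12 of the 15 higher and 2 lower, against 38.4% and 30.5%.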
